A study of Mus musculus with 16 samples.

Results

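The genes described here are the ubiquitin ligases and enzymes of the N-degron pathway around UBR4, with its partner KCMF1, in mouse muscle from which UBR4 was removed. They were chosen by symbol from 47643 genes in the table as Ubr1, Ubr2, Ubr3, Ubr4, Ubr7, Fbxo11, Ate1, Ntan1 and Kcmf1, which makes 9 genes. All 9 were in the table and all 9 passed the filter on low values, a mean of at least 1 TPM, that left 10628 genes for testing. TPM is a gene's share of all transcripts in a sample, corrected for the length of the gene and scaled so that each sample sums to 1000000. The question of the comparison was whether the other recognins rose when UBR4 was lost.

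RNA was measured in tibialis anterior, a fast muscle of the lower leg, from 16 male C57BL6/J mice in 4 groups of 4. UBR4 mKO mice carried loxP-flanked Ubr4 alleles (Ubr4 fl/fl) together with a tamoxifen-inducible Cre driven by the ACTA1 promoter. The mice called wild type (WT) here carried the same loxP-flanked alleles without Cre. All mice, WT included, received daily tamoxifen injections at 3 months of age, and muscles were taken at 6 or at 24 months. ACTA1-Cre acts in myofibers, whereas the RNA came from the whole muscle, so that transcripts of other cells were measured with those of myofibers. In such bulk samples, fewer cells of a type and less RNA per cell cannot be told apart. The labels call the samples biological replicates. The study's methods speak of fewer replicates per group than the labels assign, and all labelled samples were used.

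In the N-degron pathway, the residue at the start of a protein decides how fast the protein is degraded. Some first residues are destabilizing as such, and others become so stepwise. The amidases NTAN1 and NTAQ1 convert asparagine and glutamine, the oxygen-dependent dioxygenase ADO oxidizes cysteine, and the transferase ATE1 then adds an arginine. N-recognins, ubiquitin ligases with a zinc-binding domain called the UBR box, bind the destabilizing residue and attach ubiquitin. UBR1, UBR2 and UBR4 are recognins of this kind, and UBR1 and UBR2 work with the ubiquitin-conjugating enzymes UBE2A and UBE2B. UBR3, UBR7 and FBXO11 belong to the UBR family but are not classical readers of these residues. KCMF1 is a RING-type ligase that binds UBR4. In skeletal muscle, ligases of this pathway are known for their part in protein breakdown during wasting.

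The level of the whole transcriptome on the TPM scale moved between the groups, which sets how the members are read. The share of TPM taken by 37 mitochondrially encoded genes was 52.6% to 59.7% in the 6-month WT samples and 46.1% to 49.8% in the 6-month UBR4 mKO samples. The median gene tested was 0.33 higher on the log2 scale in 6-month UBR4 mKO than in 6-month WT muscle, and 0.26 higher in 24-month than in 6-month WT muscle. Between the genotypes at 24 months it differed by 0.01. The part of the mitochondrial share in these shifts was not tested. Each member is therefore given on the TPM scale and after median-of-ratios scaling, in which each sample is divided by 1 factor taken from 14470 genes above 0 in every sample. After that scaling the median gene differed by -0.02 at 6 months.

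The third 24-month UBR4 mKO sample stood apart from the others of its group in a way that followed transcript length. Its ratio to the mean of the other 3 samples, on the TPM scale, was highest for Ntan1 at 1.22 and then, in order of longer transcripts, 0.868 for Kcmf1, 0.724 for Ubr7, 0.656 for Fbxo11, 0.639 for Ate1, 0.550 for Ubr2, 0.488 for Ubr1, 0.469 for Ubr3 and 0.398 for Ubr4. The longest annotated transcripts of the 9 members run from 1175 bases for Ntan1 to 15928 bases for Ubr4, and the ratio fell at every step of that order. The same held across 10312 tested genes with a known length, where the median ratio in this sample was 1.18 for transcripts of up to 1500 bases (1348 genes) and 0.471 for those over 12000 bases (105 genes). In the other 15 samples the median ratio of the transcripts over 12000 bases ranged from 0.677 to 1.42, with both ends in 6-month WT samples. Other ubiquitin ligases with very long transcripts were low in this sample too, with ratios of 0.393 for Mycbp2 and 0.449 for Herc2. The members' differences between the genotypes at 24 months are given with and without it.

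**Figure D1:**
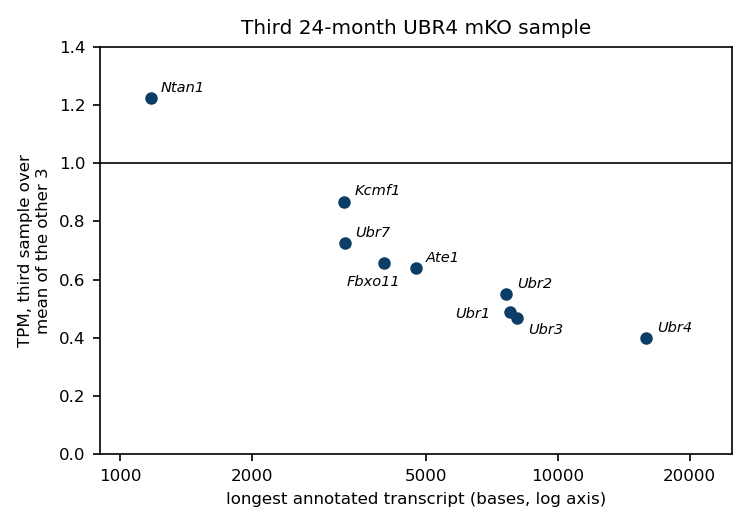
TPM in the third 24-month UBR4 mKO sample divided by the mean of the other 3 samples of its group (vertical axis, linear, from 0) against the length of the longest annotated transcript in bases (horizontal axis, log scale), with 1 point for each of the 9 members and a line at a ratio of 1. The ratio declines from 1.22 for Ntan1 to 0.398 for Ubr4, the longest of the 9.

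Markers of other cells also moved with genotype. The summed TPM of 5 leukocyte markers (Ptprc, Cd68, Adgre1, Csf1r and Cd3e) was 1.58 to 2.08 in 6-month WT and 5.06 to 21.7 in 6-month UBR4 mKO muscle, and 3.51 to 7.83 against 7.31 to 28.5 at 24 months. Of these, Cd3e was at 0 in some samples. At 6 months 3 of 3 leukocyte markers tested rose on both scales, with a median log2 fold change of 1.73 after median-of-ratios scaling. Myofiber markers summed to 73941 to 82627 TPM in 6-month WT and 96015 to 105982 TPM in 6-month UBR4 mKO muscle. Of the 7 myofiber markers, 1 rose and 2 fell after median-of-ratios scaling, and 5 rose on the TPM scale. Of 5 endothelial markers 4 rose on the TPM scale and 0 passed after scaling. Of 5 fibroblast markers 3 rose on the TPM scale and 1 after scaling, where their median was 0.48, and 3 rose after scaling as a mean over both ages. Of 5 mural cell markers 1 rose on the TPM scale and 1 fell after scaling at 6 months, and 1 of 3 Schwann cell markers fell after scaling. The summed TPM of 4 satellite cell markers was 3.80 to 5.59 in 6-month WT and 6.63 to 8.79 in 6-month UBR4 mKO muscle, without overlap. The 1 of them tested rose on the TPM scale at 6 months, by 0.68, and its difference of 0.34 after scaling did not pass. At 24 months 0 markers passed on the TPM scale, and the satellite cell marker tested, which fell, was the 1 that passed after scaling. The defining myofiber genes Acta1 and Ckm were present in every sample. The part of the marker changes in the members' values was not tested.

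The 9 members spanned a wide range of levels. On the TPM scale, which is corrected for length, Kcmf1 was the highest member in all 4 groups and Ubr3 and Ubr2 followed. Kcmf1 had a mean of 85.7 ± 9.74 TPM in 6-month WT muscle (SD, n = 4), above 94.0% of the tested genes in its mean over all samples. Ubr3 had 50.9 ± 13.2 TPM and Ubr2 20.1 ± 5.08 TPM. In 6-month WT muscle the levels of Ubr2, Ntan1, Fbxo11, Ubr4, Ate1 and Ubr7 then formed a series in which each overlapped its neighbour. Ubr1 came last at 6.11 ± 1.34 TPM, with no sample reaching the lowest value of Ubr7. Among the 3 members that read N-degrons, Ubr2 thus had the highest and Ubr1 the lowest level in WT muscle, and Ubr4 lay between them. Ubr4 was the sixth member by level in 6-month WT and the fourth in 24-month WT muscle. In 6-month UBR4 mKO muscle it was the ninth, with no overlap with Ubr1 above it, and in 24-month UBR4 mKO muscle the eighth, overlapping its neighbours.

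**Figure D2:**
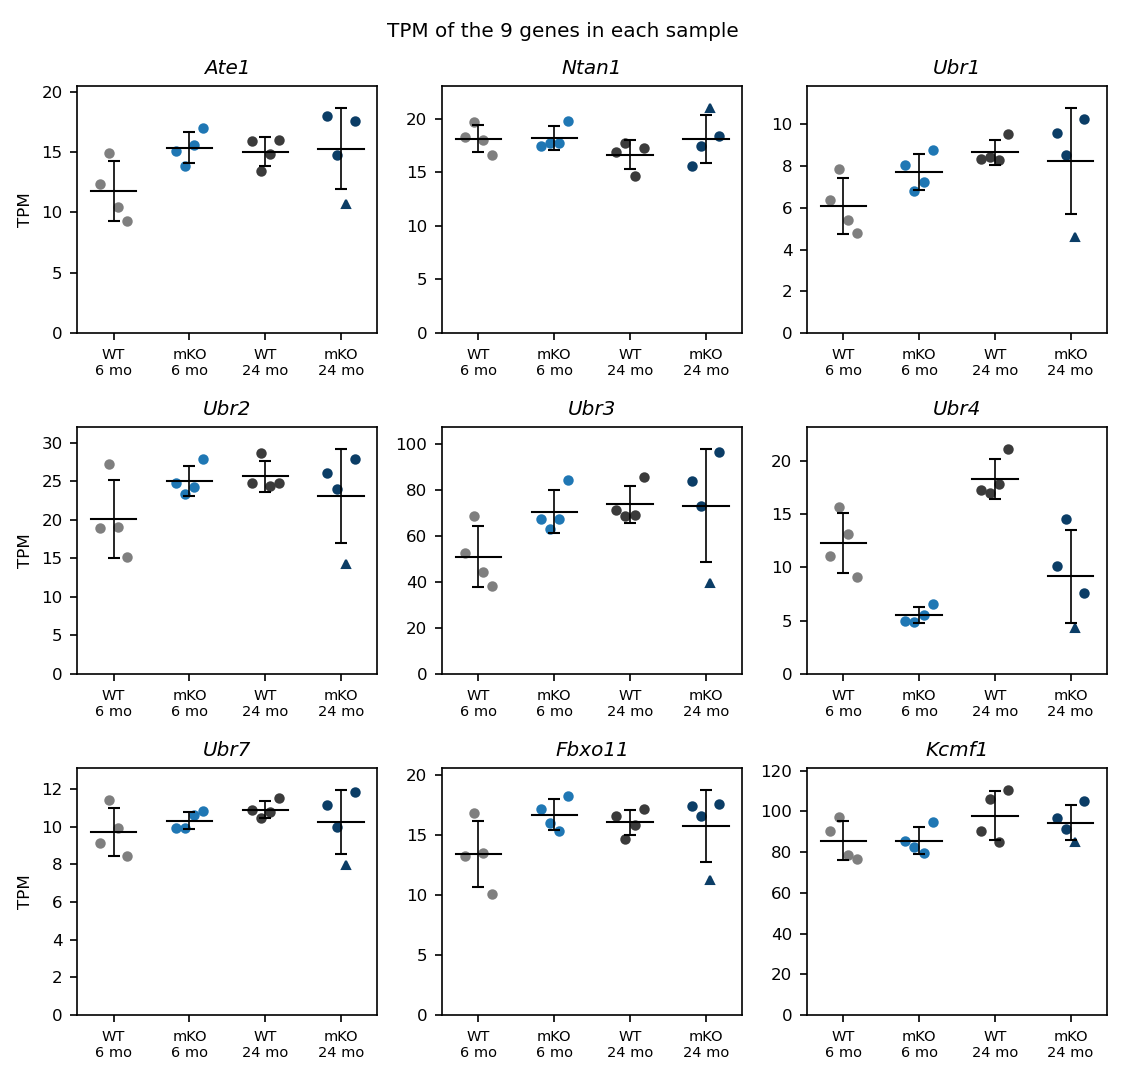
TPM of each of the 9 members in every sample (vertical axes, linear and starting at 0) for the 4 groups (horizontal axis). Circles are samples, the triangle is the third 24-month UBR4 mKO sample, and the line with its bar is the mean ± SD (n = 4). Ubr4 is the member whose UBR4 mKO samples lie below the age-matched WT samples at both ages.

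Ubr4 itself, on chr4:139352609-139489588 of GRCm38 (plus strand), encodes the very large recognin that was targeted. Its values were 11.1, 15.7, 13.2 and 9.09 TPM in 6-month WT and 4.98, 4.91, 5.51 and 6.54 TPM in 6-month UBR4 mKO muscle. At 24 months they were 17.2, 17.0, 17.8 and 21.1 TPM in WT and 10.1, 14.6, 4.28 and 7.63 TPM in UBR4 mKO muscle. All UBR4 mKO samples lay below all WT samples of the same age. The ratio of means was 0.448 at 6 months and 0.501 at 24 months (exact two-sided permutation test, p = 0.0286 at each age, the smallest that 4 against 4 samples allow). The spread within UBR4 mKO muscle was wider at 24 months (SD 4.33, n = 4) than at 6 months (SD 0.749, n = 4), and the second 24-month sample, at 14.6 TPM, lay above 3 of the 4 samples of 6-month WT. Ubr4 transcripts remained measurable in all UBR4 mKO samples. The deleted exons cannot be told apart from the others in a value per gene.

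In the test across all genes (limma, Benjamini-Hochberg adjusted over 10628 genes, threshold 0.05), Ubr4 fell at 6 months by 1.12 on the log2 scale (SE 0.26, adjusted p = 0.00365), and after median-of-ratios scaling by 1.47 (SE 0.22, adjusted p = 0.000565). Only 0.151% of tested genes had a lower log2 fold change on the TPM scale. The call held without each of the 16 samples in turn on both scales. At 24 months the log2 difference was -1.12 (95% interval -1.66 to -0.57, adjusted p = 0.0598) on the TPM scale and Ubr4 fell by 1.14 (adjusted p = 0.0281) after median-of-ratios scaling. The scaled call was lost without WT replicate 1, 3 or 4 or UBR4 mKO replicate 4 of that age (adjusted p from 0.0618 to 0.0954). Without the third 24-month UBR4 mKO sample the log2 difference was -0.80 (adjusted p = 0.0759) on the TPM scale and -0.88 (adjusted p = 0.0237) after scaling, and without the second it was -1.38 (adjusted p = 0.0146) on the TPM scale. As a mean over both ages Ubr4 fell by 1.12 (adjusted p = 0.000604).

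At 6 months on the TPM scale the test called 2 of the 9 members, Ubr4 downward and Ate1 upward, where 1.15% of all tested genes were called lower and 43.7% higher. After median-of-ratios scaling it called 4 members, Ubr4, Ubr7, Ntan1 and Kcmf1, all lower, where 10.2% of all genes were called lower and 6.66% higher. At 24 months it called 0 members on the TPM scale, where 0.63% of genes were called in either direction, and Ubr4 after scaling, where 0.499% were called lower. At an unadjusted p below 0.05, 4 members passed at 6 months on either scale and 1 at 24 months. The share of all genes at that unadjusted threshold is not given here, so these counts are not read as results about the members. After adjustment, 4767 of the 10628 genes already passed at 6 months on the TPM scale. The 8 members other than Ubr4 had a median log2 fold change of 0.34 at 6 months on the TPM scale beside 0.33 for all genes, and of -0.01 beside -0.02 after scaling. At 24 months the TPM medians were -0.06 and 0.01. Without the third 24-month UBR4 mKO sample they were 0.07 and 0.07, and after scaling -0.01 and -0.01. A Kruskal-Wallis test with Dunn's comparison on the same values, adjusted over all genes, called 0 members in each of the pairwise comparisons. That 0 includes Ubr4, whose UBR4 mKO samples all lay below the WT samples of the same age. It therefore does not show that the other members were unchanged.

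**Figure D3:**
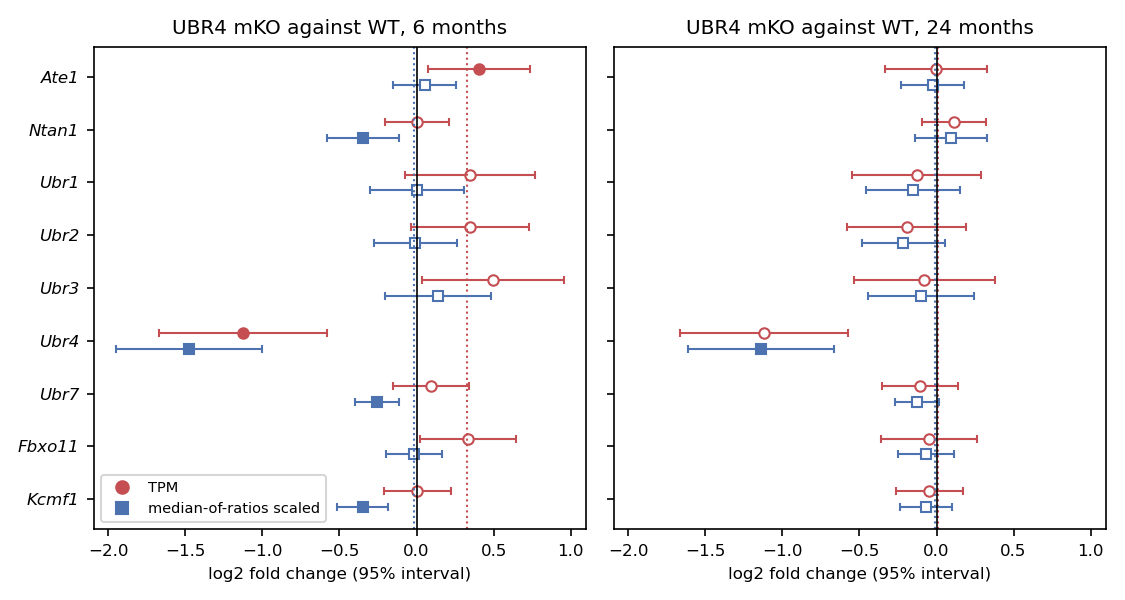
Log2 fold change of UBR4 mKO against WT (horizontal axis) for the 9 members (rows) at 6 and at 24 months, from TPM (red circles) and after median-of-ratios scaling (blue squares), with 95% intervals as bars. Filled symbols have an adjusted p below 0.05, open symbols do not, and dotted lines mark the median gene on each scale. Ubr4 lies apart from the other 8 at both ages, and at 6 months the scaled values of Kcmf1, Ubr7 and Ntan1 lie below 0.

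Ubr1 and Ubr2, the recognins that could read the same residues, did not pass the test at either age. Ubr2 (chr17:46928295-47010556, minus strand) had 19.0, 27.2, 19.0 and 15.2 TPM in 6-month WT and 24.8, 23.3, 24.2 and 27.9 TPM in 6-month UBR4 mKO muscle. Its groups overlapped through the second WT sample alone, which was the highest of its group in all members. The difference was 0.34 on the log2 scale (95% interval -0.04 to 0.73, adjusted p = 0.122), and -0.01 (-0.28 to 0.26, adjusted p = 0.975) after median-of-ratios scaling. The scaled interval thus extends to a 1.20-fold higher and a 0.827-fold level. At 24 months Ubr2 had 24.7, 28.7, 24.4 and 24.9 TPM in WT and 26.0, 24.1, 14.3 and 27.9 TPM in UBR4 mKO muscle, with a log2 difference of -0.19 (-0.58 to 0.19) and overlapping groups. Without the third UBR4 mKO sample, at 14.3 TPM, the difference was 0.02 from TPM and -0.06 after scaling, and did not pass.

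Ubr1 (chr2:120860269-120970715, minus strand) had 6.36, 7.88, 5.44 and 4.77 TPM in 6-month WT and 8.06, 6.81, 7.22 and 8.79 TPM in 6-month UBR4 mKO muscle, and the groups overlapped. The difference was 0.35 on the log2 scale (95% interval -0.07 to 0.77, adjusted p = 0.150) and 0.00 (-0.30 to 0.31, adjusted p = 0.998) after scaling. Its value relative to the median gene was thus near 0, with an interval from a 0.810-fold to a 1.24-fold level. At 24 months it had 8.37, 8.44, 8.30 and 9.53 TPM in WT and 9.57, 8.54, 4.62 and 10.3 TPM in UBR4 mKO muscle. The log2 difference was -0.13 (-0.55 to 0.29), and the lowest sample was the third one described above. Without that sample the difference was 0.12 from TPM and 0.05 after scaling, and did not pass.

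Leaving out the third 24-month UBR4 mKO sample, which does not enter the 6-month groups but does enter the shared estimate of the spread, left the 6-month fold changes as they were and brought more members past the threshold on the TPM scale. Ubr1 then had an adjusted p of 0.0340, Ubr2 of 0.0358, Ubr3 of 0.0120 and Fbxo11 of 0.0271. These TPM differences of 0.33 to 0.49 stood beside 0.33 for the median gene, and after median-of-ratios scaling none of these 4 passed without that sample. Without the second 6-month WT sample Ubr2 was 0.50 higher (adjusted p = 0.0240), Ubr3 0.65 higher (adjusted p = 0.0222) and Fbxo11 0.45 higher (adjusted p = 0.0167) on the TPM scale. That sample had the highest median-of-ratios factor of its group, 1.00 against 0.715 to 0.860, so its removal lowers the TPM level of 6-month WT as a whole. The median gene and the share of all genes called in that fit are not given here. These differences are therefore not read as a rise particular to these members.

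The amount of Ubr4 relative to Ubr1 and Ubr2 within a sample does not depend on the scaling between samples. Ubr4 made up 30.5%, 30.8%, 35.0% and 31.2% of the summed TPM of Ubr1, Ubr2 and Ubr4 in 6-month WT muscle, and 13.2%, 14.0%, 14.9% and 15.1% in 6-month UBR4 mKO muscle. The groups were far apart, with means of 31.9% ± 2.09 and 14.3% ± 0.897 (SD, n = 4 each). At 24 months the shares were 34.2%, 31.4%, 35.3% and 38.0% in WT and 22.1%, 30.9%, 18.4% and 16.6% in UBR4 mKO muscle, and the second UBR4 mKO sample came within 1 percentage point of the lowest WT sample. The third 24-month UBR4 mKO sample did not stand apart in this share. The summed TPM of the 3 genes was 38.5 ± 9.03 in WT and 38.3 ± 3.52 in UBR4 mKO muscle at 6 months, and 52.6 ± 2.59 and 40.5 ± 11.5 at 24 months. After median-of-ratios scaling the sum was 44.4 ± 4.34 in WT and 35.1 ± 1.62 in UBR4 mKO muscle at 6 months, and 51.0 ± 2.60 and 38.1 ± 8.94 at 24 months, without overlap between the genotypes at either age. These shares and sums are descriptions and were given no test.

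**Figure D4:**
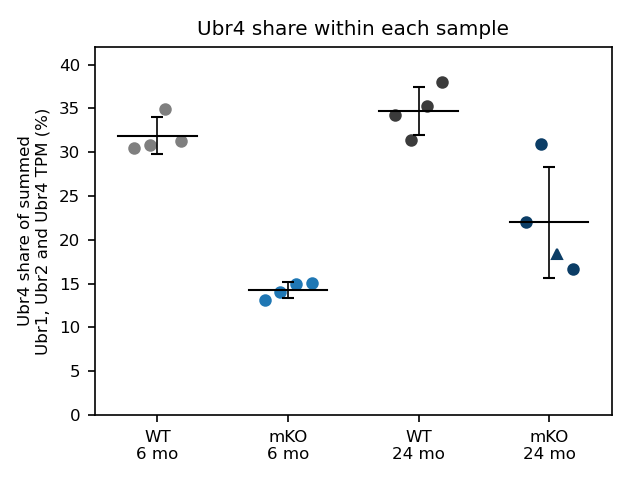
Share of Ubr4 in the summed TPM of Ubr1, Ubr2 and Ubr4 (vertical axis, percent, from 0) in each sample of the 4 groups (horizontal axis), with the mean ± SD (n = 4). The 6-month UBR4 mKO samples lie between 13.2% and 15.1%, below all other samples, and the 24-month UBR4 mKO samples spread from 16.6% to 30.9%.

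Among the family members that are not classical N-recognins, Ubr3 (chr2:69897246-70024013, plus strand) and Fbxo11 (chr17:87990859-88065291, minus strand), the substrate receptor of an SCF-type ligase, had 6-month differences that did not pass on either scale. Ubr3 had 52.7, 68.5, 44.3 and 38.1 TPM in 6-month WT and 67.2, 63.2, 67.3 and 84.1 TPM in 6-month UBR4 mKO muscle, with a log2 difference of 0.49 (95% interval 0.04 to 0.95, adjusted p = 0.0712) and of 0.14 (-0.20 to 0.48, adjusted p = 0.589) after scaling. Its TPM difference exceeded that of 75.1% of the tested genes. Fbxo11 had 13.2, 16.8, 13.4 and 10.1 TPM in 6-month WT and 17.1, 15.98, 15.3 and 18.3 TPM in 6-month UBR4 mKO muscle, with 0.33 (0.02 to 0.65, adjusted p = 0.0744) and -0.02 (-0.20 to 0.16, adjusted p = 0.907). The groups of both genes overlapped at 6 months. At 24 months Ubr3 had 71.3, 68.7, 69.0 and 85.5 TPM in WT and 83.9, 72.9, 39.5 and 96.3 TPM in UBR4 mKO muscle. Fbxo11 had 16.5, 14.7, 15.8 and 17.1 TPM in WT and 17.4, 16.6, 11.3 and 17.6 TPM in UBR4 mKO muscle at that age. In both genes the third UBR4 mKO sample was the lowest and the groups overlapped. The log2 differences at that age were -0.08 for Ubr3 and -0.05 for Fbxo11 from TPM, and without that sample 0.19 and 0.10 (0.11 and 0.02 after scaling), and did not pass.

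Ubr7 (chr12:102757967-102777707, plus strand), a UBR-box protein with a PHD finger that acts on histones, was lower in UBR4 mKO muscle after scaling at 6 months. It had 9.13, 11.4, 9.92 and 8.45 TPM in 6-month WT and 9.90, 9.93, 10.6 and 10.8 TPM in 6-month UBR4 mKO muscle, a log2 difference of 0.09 (95% interval -0.16 to 0.34, adjusted p = 0.508). After median-of-ratios scaling the values were 10.6, 11.3, 11.6 and 11.8 in WT and 9.33, 9.47, 9.83 and 9.27 in UBR4 mKO muscle. On that scale all UBR4 mKO samples lay below all WT samples, and Ubr7 fell by 0.26 (-0.40 to -0.12, adjusted p = 0.0152), to 0.834 of the WT mean (exact permutation test, p = 0.0286). The call held without each sample in turn, and the direction thus depended on the scale. At 24 months the scaled values were 10.3, 10.4, 10.9 and 10.7 in WT and 9.97, 9.58, 8.59 and 10.6 in UBR4 mKO muscle, and the log2 difference was -0.13 and did not pass. Without the third UBR4 mKO sample it was -0.07 after scaling and 0.01 from TPM.

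ATE1, the arginyltransferase one step before the recognins, was the only member called higher in UBR4 mKO muscle on the TPM scale. Ate1 (chr7:130391493-130520369, minus strand) had 12.3, 14.95, 10.5 and 9.29 TPM in 6-month WT and 15.1, 13.9, 15.5 and 17.0 TPM in 6-month UBR4 mKO muscle, and the groups overlapped through the second WT sample. It rose by 0.40 on the log2 scale (95% interval 0.07 to 0.73, adjusted p = 0.0464) and exceeded 62.2% of the tested genes in that difference. After median-of-ratios scaling the difference was 0.05 (-0.15 to 0.26, adjusted p = 0.750). The TPM call remained in 5 of 16 fits that left out 1 sample. It was lost without 6-month WT replicate 1, 3 or 4, 6-month UBR4 mKO replicate 1, 3 or 4, any 24-month WT sample or 24-month UBR4 mKO replicate 2 (adjusted p from 0.0502 to 0.168). At 24 months Ate1 had 15.96, 13.4, 14.8 and 15.97 TPM in WT and 17.98, 14.8, 10.7 and 17.6 TPM in UBR4 mKO muscle, with a log2 difference of 0.00. Without the third UBR4 mKO sample the difference was 0.16 from TPM and 0.08 after scaling, and did not pass.

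NTAN1, the amidase that converts amino-terminal asparagine, had overlapping TPM values and lower scaled values at 6 months. Ntan1 (chr16:13818845-13835451, plus strand) had 18.3, 19.7, 17.99 and 16.6 TPM in WT and 17.5, 17.7, 17.7 and 19.8 TPM in UBR4 mKO muscle, a log2 difference of 0.00 (95% interval -0.20 to 0.21, adjusted p = 0.969). After scaling it had 21.2, 19.6, 21.1 and 23.2 in WT and 16.5, 16.9, 16.4 and 17.0 in UBR4 mKO muscle, without overlap (exact permutation test, p = 0.0286). On that scale Ntan1 fell by 0.35 (-0.58 to -0.11, adjusted p = 0.0409). The call held in 7 of 16 fits that left out 1 sample, and was lost without 6-month WT replicate 1, 3 or 4, any 6-month UBR4 mKO sample or 24-month WT replicate 1 or 4 (adjusted p from 0.0522 to 0.123). At 24 months Ntan1 had 16.9, 17.8, 14.7 and 17.2 TPM in WT and 15.5, 17.5, 20.95 and 18.4 TPM in UBR4 mKO muscle, with its highest value in the third sample. The log2 difference was 0.11 from TPM and 0.09 after scaling, and without that sample 0.04 and -0.04. Of the 1175 bases of its longest transcript, 713 overlap exons of Pdxdc1 on the opposite strand, and whether the counting used strand is not given in the sources used here. Pdxdc1 rose by 0.33 (adjusted p = 0.0200) on the TPM scale and differed by -0.02 (adjusted p = 0.810) after scaling.

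KCMF1, the partner of UBR4, had overlapping TPM values in the genotypes at 6 months and lower scaled values in UBR4 mKO muscle. Kcmf1 (chr6:72841114-72899979, minus strand) had 90.2, 97.2, 78.4 and 76.9 TPM in 6-month WT and 85.4, 82.7, 79.8 and 94.9 TPM in 6-month UBR4 mKO muscle, and the log2 difference was 0.00 (95% interval -0.21 to 0.22, adjusted p = 0.972). After median-of-ratios scaling the values were 104.9, 96.9, 91.9 and 107.5 in WT and 80.5, 78.8, 73.8 and 81.4 in UBR4 mKO muscle, with all UBR4 mKO samples below all WT samples. Kcmf1 fell by 0.35 on that scale (-0.52 to -0.18, adjusted p = 0.00704), to 0.784 of the WT mean (exact permutation test, p = 0.0286), and the call held without each of the 16 samples in turn. At 24 months Kcmf1 had 90.6, 105.9, 85.0 and 110.3 TPM in WT and 96.6, 91.5, 84.9 and 105.3 TPM in UBR4 mKO muscle. The groups overlapped, and the log2 difference was -0.05 from TPM and -0.07 after scaling, and 0.00 and -0.08 without the third UBR4 mKO sample. The difference between the ages in the genotype effect was 0.28 after scaling and did not pass (interaction, adjusted p = 0.186). As a mean over both ages after scaling, Ubr4, Ubr7 and Kcmf1 fell by 1.31 (adjusted p = 0.000196), 0.19 (adjusted p = 0.0135) and 0.21 (adjusted p = 0.0204), where 8.04% of genes were called lower and 5.97% higher. On the TPM scale 1 member, Ubr4, fell as a mean over both ages, where 1.23% of genes were called lower and 25.3% higher. Without the third 24-month UBR4 mKO sample, Ubr3 (0.34, adjusted p = 0.0214) and Ate1 (0.28, adjusted p = 0.0259) were higher in that mean on the TPM scale, and Ntan1 (-0.19, adjusted p = 0.0163) was lower after scaling. The median gene in that mean was then 0.20 higher on the TPM scale and differed by -0.02 after scaling.

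With age in WT muscle, the test called 0 of the 9 members on the TPM scale, where 25.1% of genes were called in either direction. At an unadjusted p below 0.05, 4 members passed, and the share of all genes at that threshold is not given here. Ubr4 was higher in all 24-month than in all 6-month WT samples (ratio of means 1.49, exact permutation test, p = 0.0286), with a log2 difference of 0.60 (adjusted p = 0.0877) from TPM and 0.32 (adjusted p = 0.386) after scaling, beside 0.26 for the median gene from TPM. On the TPM scale 87.5% of tested genes had a higher mean log2 level at 24 than at 6 months, and the share without overlap is not given here. Ubr1 and Ubr3 likewise did not overlap between the ages on the TPM scale, with ratios of 1.42 and 1.45 and log2 differences of 0.52 (adjusted p = 0.0627) and 0.56 (adjusted p = 0.0640). After scaling these were 0.25 (adjusted p = 0.297) and 0.29 (adjusted p = 0.282), and the groups of Ubr3 overlapped. Without the third 24-month UBR4 mKO sample Ubr1, Ubr2, Ubr3, Ubr4 and Ate1 passed on the TPM scale, with adjusted p between 0.00920 and 0.0335. That sample is in neither WT group, so the TPM fold changes stayed as they were, with 0.26 for the median gene. What changed was the shared estimate of the spread. Without the second 6-month WT sample Ubr1, Ubr2, Ubr3, Ubr4, Fbxo11 and Ate1 passed. The share of all genes called in those fits is not given here. After scaling, the called member was Ntan1, which fell by 0.40 with age in WT muscle (adjusted p = 0.0326), where 5.33% of genes were called lower. That call was lost without 6-month WT replicate 1, 3 or 4 or 24-month WT replicate 1, 3 or 4 (adjusted p from 0.0626 to 0.106), and without the third 24-month UBR4 mKO sample Ubr1 (0.25, adjusted p = 0.0358) and Ubr3 (0.29, adjusted p = 0.0470) passed beside it. Markers of cell types moved with age as well. In WT muscle 6 of 7 myofiber markers rose and 1 fell on the TPM scale, and after scaling 1 rose and 1 fell. After scaling 4 of 5 endothelial, 1 of 5 fibroblast and 1 of 5 mural cell markers fell in WT muscle, and 1 of 3 leukocyte markers rose. Their part in the members' age differences was not tested.

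With age in UBR4 mKO muscle, 0 members passed on either scale, where 6.29% of genes were called on the TPM scale and 11.3% after scaling. At an unadjusted p below 0.05, 1 member passed from TPM and 2 after scaling. The share of all genes at that unadjusted threshold is not given here, so these counts are not read as results about the members. Ubr4 had a log2 difference of 0.60 (adjusted p = 0.199) from TPM and 0.66 (adjusted p = 0.0692) after scaling, and its groups overlapped through the third 24-month sample. Without that sample Ubr4 rose by 0.92 on both scales (adjusted p = 0.00836 from TPM and 0.00336 after scaling), and Ubr1 rose by 0.29 after scaling (adjusted p = 0.0285). Scaled Kcmf1 was higher in all 24-month than in all 6-month UBR4 mKO samples, with a ratio of 1.15 (exact permutation test, p = 0.0286), but its log2 difference of 0.20 did not pass (adjusted p = 0.119). For the interaction between genotype and age, 0 of 9 members passed on either scale, where 4.7% of genes were called on the TPM scale and 1.99% after scaling. At an unadjusted p below 0.05, 0 members passed it from TPM and 2 after scaling, again without a share of all genes at that threshold. Without the second 6-month WT sample the TPM interaction of Ubr2 passed (log2 difference -0.69, adjusted p = 0.0466). With all samples, the TPM interaction of the median gene was -0.31. Among the markers, 4 of 5 endothelial, 2 of 5 fibroblast and 1 of 5 mural cell markers fell with age in UBR4 mKO muscle on both scales, as did the satellite cell marker tested, by 1.22 after scaling. That marker also passed for the interaction (-0.94 after scaling). Their part in the members' values was not tested.

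Around these members, the pathway was described from gene lists. Of 6 enzymes that prepare N-degrons or work with the recognins (Wdyhv1, Ado, Metap1, Metap2, Ube2a and Ube2b), 5 rose and 0 fell at 6 months on the TPM scale, with a median of 0.32 beside 0.33 for all genes, of which 43.7% were called higher. After scaling, 1 of the 6 rose, Wdyhv1, and 0 fell. Wdyhv1 (chr15:58141377-58158665, plus strand) is the older symbol of Ntaq1, the amidase that converts amino-terminal glutamine. It had 2.70, 3.34, 3.24 and 2.50 TPM in 6-month WT and 6.55, 5.84, 7.02 and 6.59 TPM in 6-month UBR4 mKO muscle. The groups were fully separate, with a ratio of means of 2.21 from TPM and 1.73 after scaling (exact permutation test, p = 0.0286 for each). Wdyhv1 was named because it passed the threshold on these same values, so this exact test adds no independent support. Wdyhv1 rose by 1.12 on the log2 scale (SE 0.17, adjusted p = 0.000212) and by 0.78 after scaling (SE 0.15, adjusted p = 0.00331), and 98.0% of tested genes had a lower TPM difference. The call held without each sample in turn on both scales.

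At 24 months Wdyhv1 had 3.61, 2.02, 3.14 and 3.68 TPM in WT and 3.67, 3.93, 4.62 and 4.96 TPM in UBR4 mKO muscle. The highest WT value and the lowest UBR4 mKO value were nearly equal, so that the groups overlapped, and the log2 difference was 0.48 (adjusted p = 0.270) from TPM and 0.46 (adjusted p = 0.192) after scaling, and 0.44 and 0.36 without the third UBR4 mKO sample. Within UBR4 mKO muscle Wdyhv1 was lower at 24 than at 6 months in all samples, and fell by 0.59 (adjusted p = 0.0412) from TPM and by 0.54 (adjusted p = 0.0349) after scaling. That TPM call was lost without 6-month WT replicate 1 or 3, any 6-month UBR4 mKO sample, 24-month WT replicate 3 or 24-month UBR4 mKO replicate 1 or 2 (adjusted p from 0.0504 to 0.121). The scaled call was lost without any 6-month UBR4 mKO sample or 24-month UBR4 mKO replicate 1 or 2 (adjusted p from 0.0511 to 0.0993). The interaction of genotype and age did not pass for Wdyhv1 (log2 difference -0.64, adjusted p = 0.0980 from TPM), but passed without the second WT sample of 6 months (-0.71, adjusted p = 0.0471) or of 24 months (-0.83, adjusted p = 0.0203).

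Of 19 other ligases that read protein ends (among them the GID/CTLH complex, Zyg11b and Zer1), 12 rose and 1 fell at 6 months on the TPM scale, with a median of 0.36, and 1 rose and 1 fell after scaling, with a median of 0.01. Of all tested genes 43.7% were called higher and 1.15% lower on the TPM scale, and 6.66% and 10.2% after scaling. The ligase subunit that fell was Gid4 (chr11:60417145-60450927, plus strand), the substrate receptor of the GID/CTLH complex for proteins that start with proline. It had 25.3, 29.6, 23.2 and 19.8 TPM in 6-month WT and 13.7, 16.2, 16.4 and 20.9 TPM in 6-month UBR4 mKO muscle, where the fourth samples overlapped. After scaling it had 29.4, 29.5, 27.2 and 27.6 in WT and 12.9, 15.4, 15.2 and 17.9 in UBR4 mKO muscle, without overlap. Gid4 fell by 0.54 (adjusted p = 0.00715) from TPM and by 0.89 (adjusted p = 7.8e-05) after scaling, and held without each sample in turn on both scales. Of 10 other genes of the complex on the list, Maea, Gid8, Rmnd5b, Ranbp9, Ranbp10, Armc8, Wdr26 and Ypel5 rose on the TPM scale, Rmnd5a (0.13) and Mkln1 (0.27) did not pass there, and 0 passed after scaling.

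At 24 months Gid4 had 25.1, 27.4, 25.7 and 26.2 TPM in WT and 24.7, 19.1, 16.8 and 18.5 TPM in UBR4 mKO muscle, and again all UBR4 mKO samples lay below all WT samples (ratio of means 0.759, exact permutation test, p = 0.0286). Gid4 too was named because it passed the threshold on these values, so the exact test adds no independent support. The log2 difference of Gid4 at 24 months was -0.41 (adjusted p = 0.254) from TPM, and it fell by 0.43 (adjusted p = 0.0492) after scaling. The scaled call held in 3 of 16 fits that left out 1 sample, since it remained without 6-month UBR4 mKO replicate 1 or 4 or 24-month UBR4 mKO replicate 1 and was lost without each of the others (adjusted p from 0.0666 to 0.156). Without the third 24-month UBR4 mKO sample the difference was -0.34 (adjusted p = 0.369) from TPM and -0.42 (adjusted p = 0.0668) after scaling. Over both ages Gid4 fell by 0.48 (adjusted p = 0.00306) from TPM and by 0.66 (adjusted p = 0.000114) after scaling. The ligase that rose on both scales at 6 months was Birc3, an inhibitor-of-apoptosis ligase that is also expressed by leukocytes. Birc3 rose by 0.79 (adjusted p = 0.00235) from TPM and by 0.45 (adjusted p = 0.0289) after scaling. The scaled call was lost without 6-month WT replicate 3 or 4 or UBR4 mKO replicate 1 or 4 (adjusted p from 0.0662 to 0.0910). At 24 months the log2 difference of Birc3 was -0.46 (adjusted p = 0.302) from TPM and -0.48 (adjusted p = 0.109) after scaling, and without the second 24-month WT sample it fell by 0.64 after scaling (adjusted p = 0.00698). Without the third 24-month UBR4 mKO sample the difference at that age was -0.45 from TPM and -0.53 after scaling. With age in WT muscle Birc3 rose by 1.26 (adjusted p = 0.000133) from TPM and by 1.00 after scaling. The 3 leukocyte markers tested had median scaled log2 differences of 1.73 at 6 months, 0.97 at 24 months, where 0 passed, and 1.20 with age in WT muscle, where 1 rose. Their part in the values of Birc3 was not tested.

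**Figure D5:**
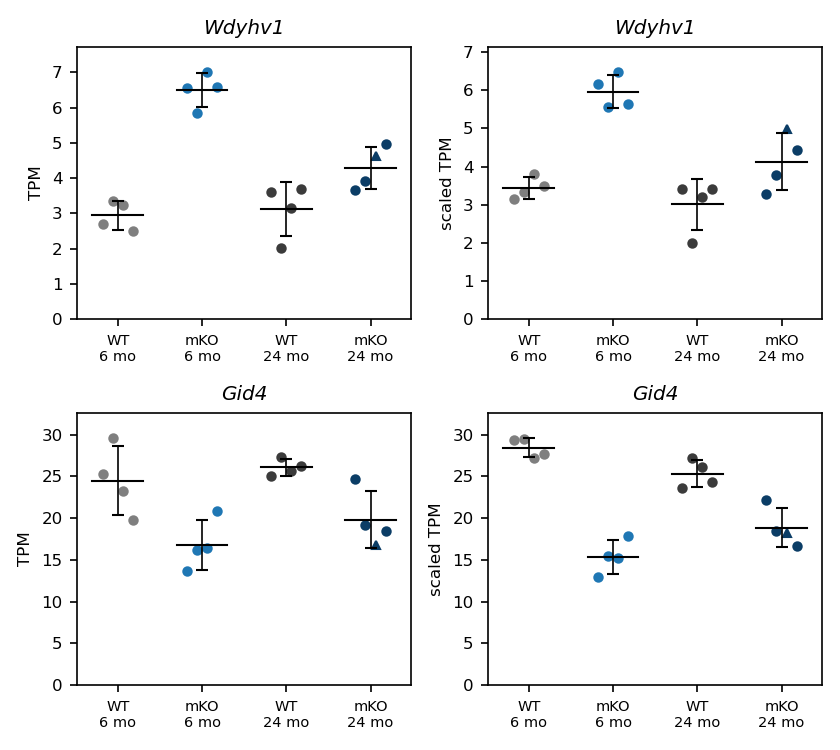
Wdyhv1 (Ntaq1, top) and Gid4 (bottom) in every sample of the 4 groups (horizontal axes), as TPM (left) and after median-of-ratios scaling (right), on linear vertical axes from 0. Circles are samples, the triangle is the third 24-month UBR4 mKO sample, and the line with its bar is the mean ± SD (n = 4). Wdyhv1 lies between 2.50 and 3.34 TPM in 6-month WT and between 5.84 and 7.02 TPM in 6-month UBR4 mKO muscle, and scaled Gid4 is lower in UBR4 mKO than in age-matched WT muscle in all samples.

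Of 11 N-terminal acetyltransferase subunits, which cap protein starts, 5 rose and 0 fell at 6 months on the TPM scale, with a median of 0.33, a share near the 43.7% of all genes called higher. After scaling 0 rose and 2 fell, Naa20 by 0.35 (adjusted p = 0.0224) and Naa60 by 0.33 (adjusted p = 0.0113), which differed by 0.00 and 0.02 from TPM. Of all tested genes 10.2% were called lower after scaling. The Naa20 call was lost without 6-month WT replicate 1, 3 or 4 or UBR4 mKO replicate 1 (adjusted p from 0.0555 to 0.0729). Of 6 genes for proteins linked to UBR4, the autophagy receptor gene Sqstm1 rose by 0.53 on the TPM scale (adjusted p = 0.00202), where 43.7% of all genes were called higher, and none of the others passed. After scaling the log2 difference of Sqstm1 was 0.18 and did not pass (adjusted p = 0.286). After scaling Calm2 fell by 0.33 (adjusted p = 0.0163) and Calm3 by 0.46 (adjusted p = 0.00807). Both encode calmodulin, a calcium sensor that binds UBR4. The Calm2 call was lost without 6-month WT replicate 1 or 4 or UBR4 mKO replicate 1 (adjusted p from 0.0542 to 0.0552). From TPM they differed by 0.02 and -0.11. Hat1, whose product is a histone acetyltransferase that the study examined as a UBR4 target, did not pass at either age on either scale, with 6-month log2 differences of 0.12 (adjusted p = 0.348) from TPM and -0.23 (adjusted p = 0.0578) after scaling.

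Of 3 genes for substrates of the cysteine branch (Rgs4, Rgs5 and Rgs16), 2 were tested and 1, Rgs5, rose by 0.34 on the TPM scale (adjusted p = 0.0120), close to the 0.33 of the median gene, while 0 passed after scaling. Rgs5 is also a marker of mural cells. Of 6 other very large ligases, whose transcripts are long like that of Ubr4, 1 rose on the TPM scale at 6 months, and 0 passed after scaling. Of all genes 43.7% were called higher there on the TPM scale. Their median log2 fold change was 0.39 from TPM and 0.04 after scaling at 6 months, beside -1.12 and -1.47 for Ubr4. At 24 months 0 of them passed and their median from TPM was -0.25, beside -1.12 for Ubr4, and 0.07 beside -0.80 without the third UBR4 mKO sample. In all these lists, 0 genes passed at 24 months on the TPM scale, and Gid4 was the gene that did after scaling.

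The genes whose level was most like that of Ubr4 over the 16 samples, by Pearson's r of scaled log2 values, were Bap1 (r = 0.97), Unc5a (r = 0.96) and Sbf1 (r = 0.96). Bap1 encodes a nuclear deubiquitinase and Unc5a a netrin receptor. Mean scaled Unc5a was 5.77 ± 0.676 in WT and 2.77 ± 0.276 in UBR4 mKO muscle at 6 months, and 6.30 ± 0.346 and 3.75 ± 0.601 at 24 months (SD, n = 4 each). The genes most like Kcmf1 included Sar1a (r = 0.93) and Eif3e (r = 0.93). Among the members, r with Ubr4 ran from 0.02 for Ntan1 to 0.73 for Ubr7, with 0.62 for Kcmf1, 0.47 for Ubr1 and 0.44 for Ubr2. These values describe 16 samples that share the 4 groups and the length pattern of the third 24-month UBR4 mKO sample, and were given no test.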

How the data were processed

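The authors deposited TPM values, made from poly(A) RNA of tibialis anterior by paired-end sequencing, alignment to GRCm38 and counting in CLC Genomics Workbench 12.0.1. The labels name a stranded kit and the study's methods an unstranded one, and the use of strand in counting is not given in the sources used here. Each sample sums to 1000000 TPM, so that the depth of each sample is unknown.

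Groups came from the labels. The study's methods give 3 replicates per group, while the labels assign 4. Which 3 were meant is not given in the sources used here, and all 4 were used. Values were transformed as log2(TPM + 0.1), which understates changes of low genes, and the 10628 genes with a mean of at least 1 TPM entered limma 3.58.1 under R 4.3.3 (1 coefficient per group over all 16 samples, variance trend, Benjamini-Hochberg adjustment over all genes tested, threshold 0.05). The scaled values were fitted in the same way. The fit was also run on simulated data, and as the outcome is not given here, no accuracy of the fit is claimed from it. Single genes were compared by an exact two-sided permutation test of the difference of means over 70 assignments. P-values measure the spread between these samples.

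The members and gene lists were chosen with earlier results of these data known. Named were all members, the 3 genes most like Ubr4 and Kcmf1, and genes of each list past the threshold after scaling. Hat1, Sqstm1, Rgs5, Mycbp2, Herc2, Pdxdc1 and the GID/CTLH subunits were named after their values were seen. Some genes of these lists are not reported here. Alternatives were other pseudocounts, filters, scalings, variance settings, array weights, a replicate block, Kruskal-Wallis tests, and each sample left out. The scaled fits without each sample were added after seeing the data. Positions and transcript lengths are from GENCODE M21, and transcripts were compared with minimap2 2.31. Apart from Ntan1, exons of Ubr1, Ubr4, Ubr7 and Fbxo11 overlap those of neighbours by 308, 109, 212 and 34 bases. Python 3.11.15 with matplotlib 3.10.9 made the figures. No sequence is printed, since the members' values are levels of whole genes.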

Additional observations from a re-analysis of the deposited data

Results flagged for a closer look

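In 5 of 48 groups of 4 values examined, 1 sample lay further from the others than Dixon's 95% limit allows, where chance gives about 1 in 20 groups (2.4 of 48). Fbxo11 was 11.3 TPM in the third 24-month UBR4 mKO sample and 16.6 to 17.6 TPM in the others, which is the sample whose values declined with transcript length. Ntan1 was 19.8 TPM in the fourth 6-month UBR4 mKO sample and 17.5 to 17.7 TPM in the others. In 24-month WT muscle, Ubr1 was 9.53 TPM in the fourth sample and 8.30 to 8.44 TPM in the others, and Ubr3 was 85.5 TPM in the same sample and 68.7 to 71.3 TPM in the others. Ubr2 was 28.7 TPM in the second 24-month WT sample and 24.4 to 24.9 TPM in the others.

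Birc3, one of the listed ligases, differed between the ages in its genotype effect by a test of that difference. The log2 fold change of UBR4 mKO against WT was 1.25 lower at 24 than at 6 months (interaction -1.25, SE 0.24, adjusted p = 0.00918 by limma), and -0.93 (adjusted p = 0.0204) after median-of-ratios scaling. Its mean was 1.67 ± 0.317 TPM in 6-month WT, 2.95 ± 0.389 in 6-month UBR4 mKO, 4.19 ± 0.948 in 24-month WT and 2.95 ± 0.198 TPM in 24-month UBR4 mKO muscle (SD, n = 4 each). The scaled interaction was not past the threshold without 6-month UBR4 mKO replicate 1 (adjusted p = 0.0528) or 24-month WT replicate 1 (adjusted p = 0.0523).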

How the results depend on the processing

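The count of members called depended on the scaling and on single samples. At 6 months it was 2, and 1 with no filter, no variance trend or the replicate block, 4 with median-of-ratios or quantile scaling, 5 with array weights, 0 with Kruskal-Wallis tests and 1 to 6 with 1 sample left out. At 24 months it was 0, and 1 with median-of-ratios scaling, quantile scaling or array weights, and 0 to 1 with 1 sample left out. For age in WT it was 0, and 1 with median-of-ratios or quantile scaling or without mitochondrial genes, 7 with array weights, 3 with only the groups compared and 0 to 6 with 1 sample left out. For age in UBR4 mKO it was 0, with 1 under array weights and 0 to 1 with 1 sample left out, and for the interaction 0 and 0 to 1. For the mean of the ages it was 1, and 3 with median-of-ratios (with the replicate block too) or quantile scaling, 5 with array weights and 1 to 3 with 1 sample left out. After median-of-ratios scaling, leaving out 1 sample gave 3 to 4 at 6 months, 0 to 1 at 24 months, 0 to 3 for age in WT, 0 to 2 for age in UBR4 mKO and 3 to 4 for the mean. Counts over all genes in each of these fits are not given here, so the member counts describe dependence on processing alone. With all samples, 4767 of 10628 genes were called at 6 months from TPM and 1790 after median-of-ratios scaling.

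Six-month log2 differences that were positive from TPM and passed the threshold as negative values under another scaling were Ubr7 at -0.26 with median-of-ratios and -0.23 with quantile scaling, Ntan1 at -0.35 and -0.29 (-0.25 without mitochondrial genes), Kcmf1 at -0.35 and -0.23, Calm2 at -0.33 (-0.23 without mitochondrial genes), Naa20 at -0.35 and -0.31 (-0.25 without mitochondrial genes), and Naa60 at -0.33 and -0.28. The cause was not tested. With Ubr3 added to the sum, the share of Ubr4 was 13.8% and 5.04% at 6 months and 14.5% and 8.03% at 24 months in WT and UBR4 mKO muscle. The scaled 6-month fall of Naa20 was lost without WT replicate 1, 3 or 4 or UBR4 mKO replicate 1. Over all single-gene alternatives, 4377 kept their side of the threshold, some of them with another sign where neither value passed, 102 newly passed, 114 no longer passed and 19 passed with the opposite sign.

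The replicate numbers gave no clear sign of pairing. Of 24 same-numbered pairs of samples, some from different ages, 4 correlated above 0.1 (range -0.35 to 0.18) and 7 correlated best with their own number. With groups this small, such a check cannot exclude pairing. The study's methods call the WT controls siblings, and which samples were siblings is not given in the sources used here. With the replicate block, Ubr4 was the 1 member called at 6 months. After median-of-ratios scaling the block left 3 members at 6 months (Ubr4, Ubr7 and Kcmf1), 0 at 24 months (Ubr4 adjusted p = 0.0514) and 0 for age in WT. TPM keeps no depth, so the precision that sequencing depth gives is unknown.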
